A study of Homo sapiens with 15 samples.

Results

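A-485, a small molecule that blocks the acetyltransferase activity of the coactivators CBP and p300, was compared with its vehicle DMSO in MM.1S, an established human multiple myeloma cell line. The 3 libraries with A-485 and the 3 with DMSO were chosen by their treatment labels and make up 6 of the 15 libraries of the series. The A-485 group received 100 nM of the compound for 6 h, and the DMSO group received the vehicle for the same time. Values are set beside those of 3 further groups of 3 libraries each, all treated for 6 h with 100 nM of each compound. One received GNE-781, a ligand of the bromodomains of CBP and p300, another received both inhibitors at once, called the combination here, and the last received dCBP-1, which degrades both proteins. All groups are the same single cell line, and no source says that replicates were separate cultures, so p-values measure the spread between these libraries, which may be technical. RNA was measured by sequencing the 3′ ends of mRNA, and levels are given as normalized read counts per gene.

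CBP (CREBBP) and p300 (EP300) are paralogous coactivators that transcription factors bring to enhancers and promoters. Their catalytic domain transfers acetyl groups to histone tails and other proteins, and their bromodomain binds acetylated lysine. A-485 competes with acetyl-CoA in the catalytic site, whereas GNE-781 occupies the bromodomain. Myeloma is a cancer of plasma cells, which depend on a small set of transcription factors such as IRF4 and PRDM1, and in MM.1S the MAF gene has been moved next to the immunoglobulin heavy chain locus.

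Depth was 16.37 to 17.58 M reads with A-485 and 14.99 to 17.31 M with DMSO. The DMSO libraries differed among themselves. Mitochondrial genes took 15.02% to 16.12% of the reads with A-485, and 23.07%, 19.73% and 16.41% in DMSO replicates 1, 2 and 3. At an equal depth of 13.1 M reads, 19182 to 19805 genes had a read with A-485, and 16287, 17386 and 19676 genes in DMSO replicates 1, 2 and 3. Values are therefore given against all 3 DMSO libraries and, for the main results, against DMSO replicate 3 alone, which rests on the assumption that a single control varies as the other groups do. All 10 markers of plasma cells and of this line, among them SDC1, TNFRSF17, IRF4 and MAF, had at least 565.4 normalized read counts in each of the 6 libraries. Markers of other cells were low, the highest being CR2, with a mean of 66.3 with A-485 and 100.4 with DMSO, compared with a median level of 179.4 over the genes tested. The summed level of 11 T and NK cell markers was 30.8 to 48.2 with A-485 and 37.5 to 108.6 with DMSO, with CD3D, CD8B, NKG7 and GZMB at 0 in all 6 libraries. The sums were 84.5 to 127.3 with A-485 and 131.8 to 191.2 with DMSO for 8 B cell markers, 14.7 to 34.9 and 8.65 to 36.4 for 9 myeloid markers, and 23.6 to 39.5 and 16.3 to 35.2 for 12 stromal and epithelial markers.

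Few transcripts passed the test with A-485, and with all libraries in the fit at the deposited scaling most of those were lower. Of 16104 genes tested, 345 passed the test at a limma adjusted p below 0.05 (2.14% of the genes tested), with 289 lower (1.79%) and 56 higher (0.348%). A difference of at least 2-fold was found for 49 of the lower genes (0.304%) and 37 of the higher genes (0.230%). In bulk RNA, fewer cells of a kind and less RNA per cell cannot be told apart. The same test against the same 3 DMSO libraries called 2679 genes with GNE-781 (16.6%), 1260 higher (7.82%) and 1419 lower (8.81%). It called 3383 with the combination (21.0%), 1837 higher (11.4%) and 1546 lower (9.60%), and 6092 with dCBP-1 (37.8%), 3105 higher (19.3%) and 2987 lower (18.5%). For the other treatments such counts are given against all 3 DMSO libraries only. With A-485 the balance of directions moved with scaling and with the controls: 193 genes were lower and 164 higher under TMM scaling, and 455 were lower and 683 higher without DMSO replicate 3. The count in all was 218, 69 and 1138 without DMSO replicate 1, 2 or 3 and 212, 132 and 184 without A-485 replicate 1, 2 or 3, and 51 genes were called in all 6 of these fits.

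The calls changed with the controls used. A fit with a single control also has a larger SE, as 0.24 against 0.17 for RND3 and 0.18 against 0.13 for JUND, both described below. How much of the change in calls came from this was not tested. Against DMSO replicate 3 alone 12 genes were called (0.0745%), 6 lower and 6 higher (0.0373% each), and the median log2 fold change of all genes tested was −0.19, against −0.03 with all 3 DMSO libraries. Among the 289 genes that fell, both DMSO replicate 1 and DMSO replicate 2 lay above DMSO replicate 3 for 177 (61.2%), compared with 17.6% of all genes tested. Among the 56 that rose, both lay below DMSO replicate 3 for 43 (76.8%), compared with 54.8%. The fallen genes had a median log2 fold change of −0.71 against all 3 DMSO libraries and −0.61 against DMSO replicate 3 alone, and the risen genes 1.33 and 0.55. Of the fallen genes 287 did not overlap between the groups, compared with 11.5% of all genes tested that lay below, and of the risen genes 43 did not, compared with 3.60% that lay above. A gene with no overlap has the same direction against any 1 DMSO library, by construction. The genes were called from these same libraries, so the shares given here for called genes follow in part from the calls and are no separate support. At an unadjusted p below 0.05, 15.7% of the genes tested differed.

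The fallen genes also differed in composition from the genes tested. The median GC content of the last 500 bases of their transcripts was 55.7%, compared with 42.4% over all genes tested and 40.9% for the risen genes. Chromosome 19, a gene-dense and GC-rich chromosome, held 59 of the 289 fallen genes (20.4%), compared with 5.73% of the genes tested, and 0 of the 56 risen genes. With the trend of fold change with GC content removed from each library, 392 genes were called, 238 of which were among the 345. Of the 289 fallen genes 250 were at or above the median level of the genes tested. Shares over all genes tested are therefore not matched for level. Of the risen genes 23 had a mean below 10 normalized read counts with DMSO, and 6 had 0 reads in all 3 DMSO libraries.

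**Figure D1:**
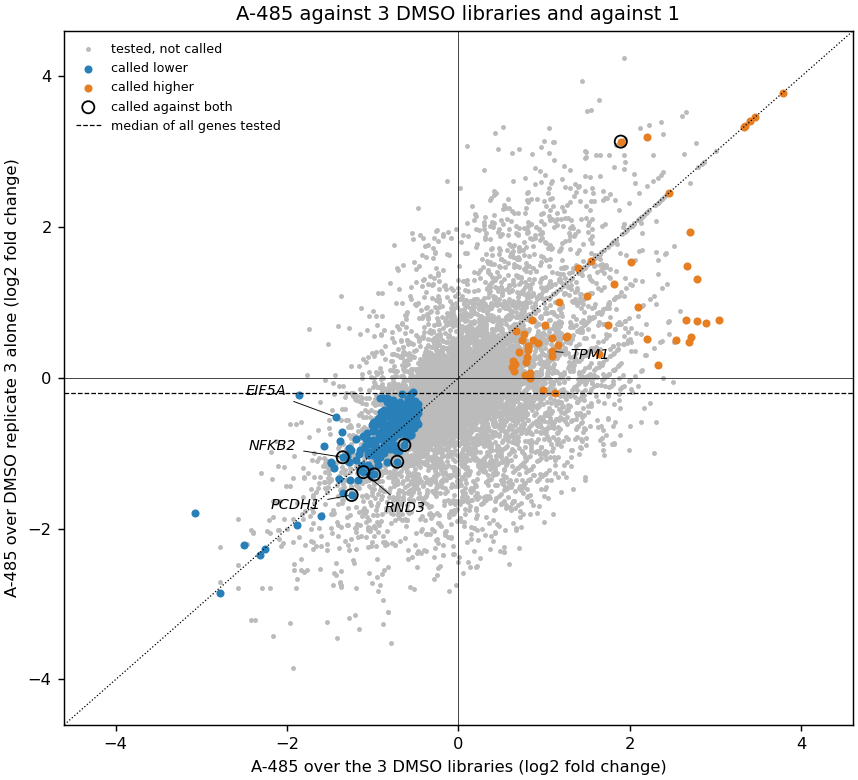
Each point is 1 of the 16104 genes tested, with its log2 fold change for A-485 over all 3 DMSO libraries on the x axis and over DMSO replicate 3 alone on the y axis; the dotted line marks equal values and the dashed line the median of all genes on the y axis (−0.19). The 289 fallen genes (blue) lie below 0 on both axes, most of the 56 risen genes (orange) lie below the dotted line, and the rings mark the 7 genes called on both axes.

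The genes that fell against both sets of controls were PCDH1, NFKB2, RND3, BCL9L, LPCAT1 and CD82. Their log2 fold changes against DMSO replicate 3 alone, given below, include the shift of −0.19 in the median of all genes. Relative to that median they were −1.36, −0.86, −1.055, −1.09, −0.92 and −0.69 in the same order. NFKB2 (ENSG00000077150, chromosome 10) encodes the precursor of a subunit of the non-canonical NF-kB pathway. It had 685, 715 and 946 normalized read counts in the A-485 libraries, against 2063, 2324 and 1606 in the DMSO libraries. The highest A-485 library lay well below the lowest DMSO library. The log2 fold change was −1.35 ± 0.15 (SE, n = 3 each; limma adjusted p = 7.9e-06) and −1.05 against DMSO replicate 3 alone (limma adjusted p = 0.029). It was called in 19 of 21 alternative analyses, and the call ended with DMSO replicate 3 alone under TMM scaling (−0.84, limma adjusted p = 0.18) and with DMSO replicate 3 alone after removal of the GC trend.

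PCDH1 (ENSG00000156453, chromosome 5) encodes a protocadherin, a cell adhesion protein of the membrane. It had 614.5, 613 and 549 normalized read counts with A-485, against 1056, 1510.2 and 1736 with DMSO. The A-485 libraries agreed closely, and DMSO replicate 1 was the lowest of the controls. The log2 fold change was −1.25 ± 0.17 (SE, n = 3 each; limma adjusted p = 0.00018) and −1.55 against DMSO replicate 3 alone (limma adjusted p = 0.0012). PCDH1 was the 1 gene called in all 21 alternative analyses, including DMSO replicate 3 alone under TMM scaling (−1.34, limma adjusted p = 0.021).

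RND3 (ENSG00000115963, chromosome 2) encodes an atypical small GTPase that acts on the actin cytoskeleton. It had 373.0, 286 and 285.5 normalized read counts with A-485, against 648, 638 and 744 with DMSO. The groups were well apart, and the 3 DMSO libraries were closer together than for NFKB2 or PCDH1. The log2 fold change was −1.11 ± 0.17 (SE, n = 3 each; limma adjusted p = 0.00059) and −1.25 against DMSO replicate 3 alone (limma adjusted p = 0.038). It was called in 19 of 21 alternative analyses, and the call ended with DMSO replicate 3 alone under TMM scaling (−1.04, limma adjusted p = 0.071) and with DMSO replicate 3 alone after removal of the GC trend.

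The start regions of NFKB2, PCDH1 and RND3 are shown because these genes had the lowest adjusted p-values among the 6. Windows run from 250 bases before to 50 bases after each RefSeq start on GRCh38.p14, are written 5′ to 3′ along the gene's own strand, and carry in capitals the matches to the NF-kB consensus of 10 bases or to TGACG, the core of the cyclic AMP response element, in either orientation (CGTCA). NFKB2 has 3 such windows, of which the 2 with matches are given, and RND3 has 2 that overlap, of which 1 is given.
NFKB2, chr10:102394328-102394627, plus strand: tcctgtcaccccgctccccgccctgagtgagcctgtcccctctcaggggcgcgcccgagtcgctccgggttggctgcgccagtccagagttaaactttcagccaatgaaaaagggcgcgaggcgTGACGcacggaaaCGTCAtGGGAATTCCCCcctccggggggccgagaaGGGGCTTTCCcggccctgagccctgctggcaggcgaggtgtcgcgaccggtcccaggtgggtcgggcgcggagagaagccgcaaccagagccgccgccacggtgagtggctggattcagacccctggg
NFKB2, chr10:102395455-102395754, plus strand: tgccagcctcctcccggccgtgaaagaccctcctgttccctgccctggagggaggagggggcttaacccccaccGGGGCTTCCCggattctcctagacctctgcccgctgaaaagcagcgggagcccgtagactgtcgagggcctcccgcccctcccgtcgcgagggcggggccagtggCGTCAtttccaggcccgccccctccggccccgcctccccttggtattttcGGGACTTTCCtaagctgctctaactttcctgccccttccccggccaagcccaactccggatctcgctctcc
PCDH1, chr5:141869578-141869877, minus strand: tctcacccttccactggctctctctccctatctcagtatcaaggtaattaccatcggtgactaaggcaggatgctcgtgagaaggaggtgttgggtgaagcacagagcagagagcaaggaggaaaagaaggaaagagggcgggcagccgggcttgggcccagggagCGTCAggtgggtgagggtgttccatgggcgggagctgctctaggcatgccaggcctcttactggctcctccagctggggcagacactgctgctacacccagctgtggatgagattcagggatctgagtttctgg
RND3, chr2:150487618-150487917, minus strand: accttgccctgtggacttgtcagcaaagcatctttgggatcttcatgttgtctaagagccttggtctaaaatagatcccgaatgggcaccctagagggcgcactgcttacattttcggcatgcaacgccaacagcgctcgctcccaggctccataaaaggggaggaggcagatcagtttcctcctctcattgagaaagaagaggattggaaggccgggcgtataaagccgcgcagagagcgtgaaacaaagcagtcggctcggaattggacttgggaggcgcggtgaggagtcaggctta
The first NFKB2 window held 3 NF-kB consensus matches, 2 of which overlap at bases 144 and 145, and 2 cores. The second held 2 consensus matches and 1 core. PCDH1 held 1 core and no consensus match, and neither window of RND3 held either motif. Over 35116 windows of this length, 11.3% held an NF-kB consensus match and 24.6% a core. The full response element, in 1.8% of all windows, and the E-box CACGTG, in 7.3%, were in none of the windows shown. A match is a string of letters and was not tested as a binding site.

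BCL9L encodes a coactivator of beta-catenin in Wnt signalling. It had 268, 296.5 and 381 normalized read counts with A-485, against 452, 688 and 759 with DMSO. The log2 fold change was −0.98 ± 0.20 (SE, n = 3 each; limma adjusted p = 0.0064) and −1.28 against DMSO replicate 3 alone (limma adjusted p = 0.041). The groups were apart, with DMSO replicate 1 nearest to the A-485 libraries. Without DMSO replicate 2 the call ended (−0.91, limma adjusted p = 0.062). Exons of CXCR5 and UPK2 lie opposite those of BCL9L, and the labels do not say whether reads were counted by strand, so reads of overlapping genes cannot be told apart. Among genes described below, this also holds for EIF5A (opposite GPS2), SF3A2 (PLEKHJ1), DOK1 (LOXL3), CCND1 (LTO1), SREBF1 (RAI1), DNAJB9 (PNPLA8 and THAP5) and BLNK (ZNF518A). On the same strand MT-ND4L shares exons with MT-ND4, and ETV5 with DGKG.

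LPCAT1, an acyltransferase of phospholipid remodelling, had 631, 636 and 793 normalized read counts with A-485, against 836, 1141 and 1476 with DMSO. The highest A-485 library was close to DMSO replicate 1. The log2 fold change was −0.71 ± 0.17 (SE, n = 3 each; limma adjusted p = 0.021) and −1.11 against DMSO replicate 3 alone (limma adjusted p = 0.029). The call ended without DMSO replicate 2 or 3 (limma adjusted p = 0.10 and 0.060) and without A-485 replicate 1 or 2 (limma adjusted p = 0.078 and 0.11). CD82, a tetraspanin of the cell membrane, had 745, 809 and 729.9 normalized read counts with A-485, against 1256, 924 and 1409 with DMSO. Its log2 fold change was −0.63 ± 0.14 (SE, n = 3 each; limma adjusted p = 0.014) and −0.89 against DMSO replicate 3 alone (limma adjusted p = 0.038). Here DMSO replicate 2 was the lowest control, and the call ended without DMSO replicate 1 (−0.58, limma adjusted p = 0.061) or A-485 replicate 3 (−0.60, limma adjusted p = 0.058).

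**Figure D2:**
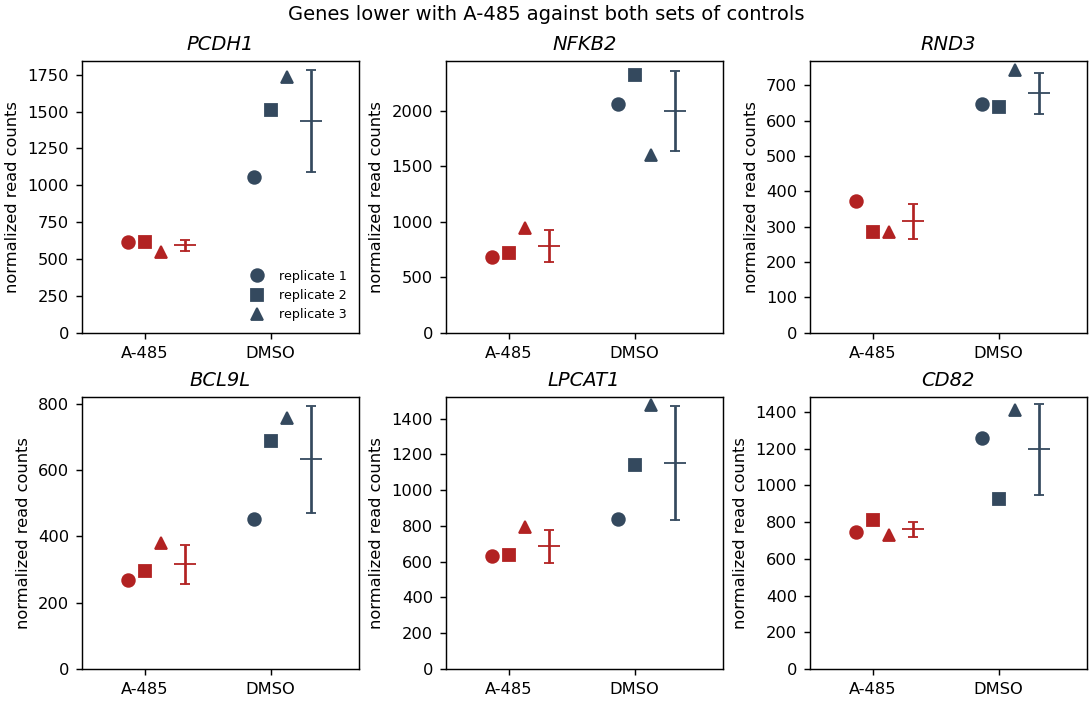
Normalized read counts of PCDH1, NFKB2, RND3, BCL9L, LPCAT1 and CD82 in each library, A-485 in red and DMSO in dark blue, with replicates told apart by marker and the mean ± SD (n = 3) beside each group. In every panel the 3 A-485 libraries lie below all 3 DMSO libraries, and PCDH1 shows the narrowest A-485 group, 549 to 614.5.

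The rises against DMSO replicate 3 alone rested on very few reads. The 6 genes were IL18R1, SLC2A9, RNU6-890P, BTBD8, RN7SL481P and ZNF18, and each had 0 or 1 read in that library. RN7SL481P, a pseudogene of the signal recognition particle RNA, was also called against all 3 DMSO libraries, with 29.8, 10.1 and 20.6 normalized read counts with A-485, against 6.73, 7.38 and 1.21 with DMSO. It was called in 4 of 21 alternative analyses. Of the 6 falls against DMSO replicate 3 alone, PCDH1 was the 1 still called there under TMM scaling. BCL9L, LPCAT1 and CD82 were not called there under TMM scaling (limma adjusted p = 0.16, 0.13 and 0.074) or after removal of the GC trend (limma adjusted p = 0.15, 0.11 and 0.070).

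Counts for the other NF-kB genes stand beside 1.79% lower and 0.348% higher over all genes tested. Of 5 NF-kB subunits tested, NFKB2 alone fell and 0 rose. REL, which encodes the subunit c-Rel, had 47.3, 35.8 and 46.7 normalized read counts with A-485, against 99.0, 78.0 and 82.5 with DMSO. Its groups did not overlap, but its log2 fold change of −0.99 missed the threshold (limma adjusted p = 0.076). RELA had 1563, 1707.5 and 1419 normalized read counts with A-485, against 979, 1160.0 and 1765 with DMSO, and here the groups overlapped, with 0.31 as the log2 fold change (limma adjusted p = 0.34). The median over the 5 subunits was −0.05 (0.03 under TMM scaling) against all 3 DMSO libraries. Against DMSO replicate 3 alone it was −0.44, or −0.25 relative to the median of all genes there.

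Of 16 NF-kB target genes tested, 1 fell and 0 rose, with a median of −0.23, and −0.42 against DMSO replicate 3 alone. Over all genes tested 1.79% fell and 0.348% rose. Of the 16, 8 lay below and 0 above all DMSO libraries, compared with 11.5% and 3.60% of all genes tested. At an unadjusted p below 0.05, 6 were lower, and edgeR called 1 and DESeq2 3. The fallen gene was GADD45B, a stress and survival factor, with 3316, 2875 and 2587 normalized read counts with A-485, against 4579, 4354 and 3866 with DMSO. Its groups did not overlap, with a log2 fold change of −0.55 ± 0.13 (SE, n = 3 each; limma adjusted p = 0.022), and it stayed called in 2 of the 6 fits that left out 1 library. Of 17 NF-kB inhibitors and pathway regulators, 0 were called by limma, while 3 were lower at an unadjusted p below 0.05, and edgeR called 0 and DESeq2 2. BCL3, a nuclear partner of NF-kB, had the smallest p of these, at −0.65 on the log2 scale (limma adjusted p = 0.10).

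MAF and genes linked to it in myeloma had the largest share of fallen members of the lists examined. Of 12 tested, 5 fell (RND3, TLR4, MAF, CCND2 and NUAK1) and 0 rose, compared with 1.79% lower over all genes, and the median was −0.38, and −0.70 against DMSO replicate 3 alone. The list was drawn up with earlier results of these data known, and it is broader than the proven targets of MAF. MAF itself, the transcription factor driven by the translocation, had 11187, 9390 and 10179 normalized read counts with A-485, against 15296, 18021 and 15865 with DMSO. All A-485 libraries lay below all DMSO libraries, and the log2 fold change was −0.68 ± 0.14 (SE, n = 3 each; limma adjusted p = 0.010). It was −0.63 against DMSO replicate 3 alone (limma adjusted p = 0.23), and the call also ended without DMSO replicate 2 (−0.61, limma adjusted p = 0.094) and without A-485 replicate 2 (−0.62, limma adjusted p = 0.071).

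CCND2, the D cyclin that MAF activates in myeloma, had 15724, 14186 and 12023 normalized read counts with A-485, against 20810.3, 21315 and 21401 with DMSO. The controls were nearly equal, and the log2 fold change was −0.61 ± 0.15 (SE, n = 3 each; limma adjusted p = 0.026) and −0.62 against DMSO replicate 3 alone (limma adjusted p = 0.25). TLR4, a receptor of innate immunity, had 308, 291.0 and 246 normalized read counts with A-485, against 502, 466 and 493 with DMSO. Its log2 fold change was −0.79 ± 0.18 (SE, n = 3 each; limma adjusted p = 0.014) and −0.81 against DMSO replicate 3 alone (limma adjusted p = 0.23). NUAK1, a kinase related to AMPK that was singled out after its values were seen, had −0.62 (limma adjusted p = 0.041) and was called in 1 of the 6 fits that left out 1 library, compared with 2 for CCND2 and 4 for TLR4. CCR1, a chemokine receptor also linked to MAF, had −0.12 (limma adjusted p = 0.73).

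The transcription factors that keep plasma cell identity gave 3 fallen and 0 risen members of 33 tested, where 1.79% of all genes tested fell and 0.348% rose, with a median of −0.22, and −0.46 against DMSO replicate 3 alone. PRDM1, which encodes the plasma cell regulator Blimp-1, had 7059, 5629 and 5909 normalized read counts with A-485, against 9387, 9718 and 8465 with DMSO. The groups were apart, and the log2 fold change was −0.57 ± 0.13 (SE, n = 3 each; limma adjusted p = 0.019) and −0.46 against DMSO replicate 3 alone (limma adjusted p = 0.38). The call ended without DMSO replicate 1 or 2 and without A-485 replicate 2 or 3 (limma adjusted p = 0.059, 0.12, 0.13 and 0.070). KLF2 had 306, 198 and 293 normalized read counts with A-485, against 403, 545 and 541 with DMSO, a log2 fold change of −0.91 ± 0.22 (SE, n = 3 each; limma adjusted p = 0.027), and MAF was the third fallen member. IRF4, on which myeloma cells depend, had 2364, 1631 and 1667 normalized read counts with A-485, against 2211, 2318 and 2476 with DMSO. The groups overlapped through A-485 replicate 1, and the log2 fold change of −0.33 (95% interval −0.72 to 0.07) did not pass the test.

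MYC had 1095.5, 588.5 and 816 normalized read counts with A-485, against 1221, 1709.5 and 1413 with DMSO. Every A-485 library lay below every DMSO library, but the A-485 libraries spread widely. The log2 fold change was −0.83 (95% interval −1.51 to −0.15; limma adjusted p = 0.21). Of 12 genes of MYC, MAX and their partners, 2 fell and 0 rose: MXD3, a repressor that pairs with MAX (−0.86, limma adjusted p = 0.0052), and MLXIP, a glucose-sensing partner of MLX (−0.58, limma adjusted p = 0.044). Of 53 MYC target and ribosome biogenesis genes, 2 fell (1.79% over all genes tested) and 0 rose, PPAN (−0.91) and RRP9 (−0.57), and the list's median was −0.15 (−0.07 under TMM scaling). PPAN shares exons with the PPAN-P2RY11 readthrough transcript, and MXD3 with RAB24, so their reads cannot be assigned to either gene alone.

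Of 34 plasma cell surface and secretory genes tested, 3 fell (1.79% over all genes tested) and 0 rose, with a median of −0.32, and −0.46 against DMSO replicate 3 alone. TNFRSF17, which encodes BCMA, the survival receptor of plasma cells, had 3874, 3907 and 3089 normalized read counts with A-485, against 5714, 6948 and 5409 with DMSO. TNFRSF13B, which encodes the related receptor TACI, had 2667, 2979.9 and 2545 normalized read counts with A-485, against 3991, 4428 and 4322 with DMSO. MZB1, an endoplasmic reticulum chaperone of antibody secretion, had 5241, 5374 and 5019 normalized read counts with A-485, against 7699, 7897 and 7442 with DMSO. In all 3 genes the groups were apart, and the DMSO replicates of TNFRSF13B and MZB1 lay close together. The log2 fold changes were −0.73 ± 0.15, −0.64 ± 0.13 and −0.56 ± 0.12 (SE, n = 3 each; limma adjusted p = 0.0065, 0.0065 and 0.0076). Against DMSO replicate 3 alone they were −0.59, −0.67 and −0.51, none of them called. Without DMSO replicate 2 the 3 calls ended (limma adjusted p = 0.083, 0.060 and 0.062), and that of TNFRSF17 also ended without A-485 replicate 3 (limma adjusted p = 0.052). Among 6 immunoglobulin genes tested the median was −0.72, and IGLL5, which shares exons with the lambda constant gene IGLC1, was the 1 that fell (−0.56, limma adjusted p = 0.036), though it was called in 1 of the 6 fits that left out 1 library.

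Signalling and growth genes were called singly, and their counts stand beside 1.79% lower and 0.348% higher over all genes tested. Of 14 ERK phosphatases and output genes 2 fell and 0 rose. SPRY1, a feedback inhibitor of receptor tyrosine kinase signalling, had 256, 245 and 245 normalized read counts with A-485, against 681, 683 and 472 with DMSO. The A-485 libraries were nearly equal and DMSO replicate 3 was the lowest control, with a log2 fold change of −1.28 ± 0.25 (SE, n = 3 each; limma adjusted p = 0.0064) and −0.92 against DMSO replicate 3 alone (limma adjusted p = 0.37). CCND1, another D cyclin, had −0.88 (limma adjusted p = 0.022). Among immediate early genes and CREB targets, 37 of which were tested, 2 passed, both lower. JUND, a member of the AP-1 family, had 1410, 1488 and 1717 normalized read counts with A-485, against 2377, 2620 and 2481 with DMSO, a log2 fold change of −0.70 ± 0.13 (SE, n = 3 each; limma adjusted p = 0.0038) that was −0.69 against DMSO replicate 3 alone and was called in 6 of the 6 fits that left out 1 library. ARRDC3, an arrestin-like adaptor, had −0.50 (limma adjusted p = 0.034). EGR1, the CREB and ERK target usually first to respond, had 61.7, 30.3 and 44.3 normalized read counts with A-485, against 32.7, 33.8 and 61.9 with DMSO, with the groups overlapping.

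Of 29 genes of the cytoskeleton and of adhesion tested, 3 were lower and 2 higher, compared with 1.79% lower and 0.348% higher over all genes tested. PTK2B, a kinase of the focal adhesion kinase family, had 3789, 4082 and 3813 normalized read counts with A-485, against 6969, 6525 and 6513 with DMSO. Both groups were tight and well apart, with a log2 fold change of −0.78 ± 0.13 (SE, n = 3 each; limma adjusted p = 0.0013) and −0.74 against DMSO replicate 3 alone (limma adjusted p = 0.12). PCDH1 and FLNA, an actin crosslinker (−0.65, limma adjusted p = 0.029), were the other fallen members. FLNA was singled out after its values were seen, and its call ended under TMM scaling (−0.57, limma adjusted p = 0.078). The risen members, TPM1, a tropomyosin that stabilises actin filaments, and LIMA1, an actin bundling protein, are described with the rises. Their log2 fold changes were 1.10 and 0.71 against all 3 DMSO libraries, but 0.35 and 0.34 against DMSO replicate 3 alone.

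Called members of the metabolic and stress lists were all lower, and their counts stand beside 1.79% lower over all genes tested. Of 24 ATF4 amino acid stress genes 2 fell and 0 rose. SLC7A5, the large neutral amino acid transporter, had 806, 918 and 1178 normalized read counts with A-485, against 1947, 2121 and 1894 with DMSO. CHAC1, which degrades glutathione, had 221, 220.3 and 200.1 normalized read counts with A-485, against 414, 348 and 405 with DMSO. Both genes were clear of overlap, with log2 fold changes of −1.05 ± 0.17 and −0.86 ± 0.15 (SE, n = 3 each; limma adjusted p = 0.00071 and 0.0021), and of −0.99 and −0.92 against DMSO replicate 3 alone (limma adjusted p = 0.12 and 0.080). Both were called in 6 of the 6 fits that left out 1 library. Of 30 SREBP and cholesterol synthesis genes 3 fell and 0 rose: INSIG1, which holds SREBP in the endoplasmic reticulum (−0.69, limma adjusted p = 0.0097), FASN, the fatty acid synthase (−0.65, limma adjusted p = 0.011), and SREBF1, which encodes SREBP itself (−0.68, limma adjusted p = 0.032). The unfolded protein response list, with 31 tested, had 3 lower and 0 higher members, the sensor paralogue ATF6B (−1.11), which shares exons with TNXB, the degradation factor EDEM2 (−0.90) and the chaperone DNAJB9 (−0.72). Of 27 interferon response genes 2 fell and 0 rose, ISG20, an antiviral exonuclease (−0.70, limma adjusted p = 0.0031), and IFIT1, at 0.00 to 3.08 normalized read counts with A-485 and 10.6 to 23.2 with DMSO. Of 29 genes on the list of HIF and its targets 2 fell and 0 rose. They were HIF1A, which encodes a subunit of HIF itself (−0.54), and the target ALDOA (−0.48), close to the threshold (limma adjusted p = 0.039 and 0.040). Of 16 BCL2 family genes 1 fell and 0 rose, the pro-apoptotic BAD (−0.78, limma adjusted p = 0.0086), which has an exon opposite GPR137 and had −0.31 against DMSO replicate 3 alone.

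Many of these calls were near the threshold and ended when any of several libraries was left out. For some the log2 fold change hardly moved: without DMSO replicate 2 it was −0.70 for INSIG1, −0.82 for TLR4 and −0.60 for CCND2, against −0.69, −0.79 and −0.61 with all libraries. For others it became smaller, as for DNAJB9 without A-485 replicate 3 (−0.54, against −0.72). Without DMSO replicate 2 the calls of GADD45B, TLR4, CCND2, KLF2, NUAK1, IGLL5, MXD3, MLXIP, RRP9, BAD, ARRDC3, CCND1, FLNA, IFIT1, EDEM2, DNAJB9, INSIG1, SREBF1, HIF1A and ALDOA ended (limma adjusted p = 0.057 to 0.18). Without DMSO replicate 1 those of GADD45B, CCND2, NUAK1, IGLL5, MLXIP, RRP9, CCND1, EDEM2, DNAJB9, FASN, SREBF1 and HIF1A ended (limma adjusted p = 0.057 to 0.13), and without DMSO replicate 3 those of NUAK1 and ALDOA (limma adjusted p = 0.069 and 0.051). Without A-485 replicate 1 the calls of IGLL5, MLXIP, RRP9, ARRDC3, FLNA, EDEM2 and ALDOA ended (limma adjusted p = 0.063 to 0.12). Without A-485 replicate 2 those of GADD45B, CCND2, KLF2, NUAK1, IGLL5, MLXIP, RRP9, ARRDC3, CCND1, FLNA, IFIT1, DNAJB9, INSIG1, SREBF1, HIF1A and ALDOA ended (limma adjusted p = 0.061 to 0.19). Without A-485 replicate 3 those of GADD45B, TLR4, CCND2, KLF2, NUAK1, IGLL5, MLXIP, RRP9, BAD, ARRDC3, CCND1, IFIT1, EDEM2, DNAJB9, INSIG1, FASN, SREBF1, HIF1A and ALDOA ended (limma adjusted p = 0.055 to 0.18). JUND, PTK2B, ISG20, ATF6B, PPAN, SLC7A5 and CHAC1 were called in all 6 of these fits, as were NFKB2, PCDH1 and RND3. Under TMM scaling the calls of EDEM2, IGLL5, ARRDC3, RRP9, HIF1A and ALDOA ended (limma adjusted p = 0.063, 0.059, 0.058, 0.053, 0.055 and 0.055). After removal of the GC trend, with all 3 controls, those of BAD, CCND1, SREBF1, FLNA, EDEM2, IGLL5, ARRDC3, RRP9 and ALDOA ended (limma adjusted p = 0.051 to 0.22). With only the A-485 and DMSO libraries in the fit 0 genes were called higher. Among the calls that ended there were those of MAF, TLR4, CCND2, PRDM1, KLF2, TNFRSF13B, MZB1, INSIG1, CD82 and LPCAT1. NFKB2, PCDH1, RND3, BCL9L, TNFRSF17 and JUND stayed called there.

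None of the genes of these lists other than NFKB2, PCDH1, RND3 and BCL9L was called against DMSO replicate 3 alone. The log2 fold changes there were closer to 0 for GADD45B (−0.41), MXD3 (−0.46), RRP9 (−0.45), EDEM2 (−0.45), DNAJB9 (−0.39), HIF1A (−0.44), FASN (−0.52), PPAN (−0.73), ATF6B (−0.77) and CCND1 (−0.72) than with all 3 DMSO libraries. They were within 0.1 of that value for INSIG1 (−0.69), SREBF1 (−0.71), ISG20 (−0.66), MLXIP (−0.63), FLNA (−0.71), IGLL5 (−0.52), IFIT1 (−2.86), MYC (−0.81), IRF4 (−0.41) and REL (−0.93). They were further from 0 for KLF2 (−1.05), NUAK1 (−0.79), ARRDC3 (−0.61), ALDOA (−0.61) and BCL3 (−0.92). These values, and the list medians against DMSO replicate 3 alone, include the shift of −0.19 in the median of all genes.

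**Figure D3:**
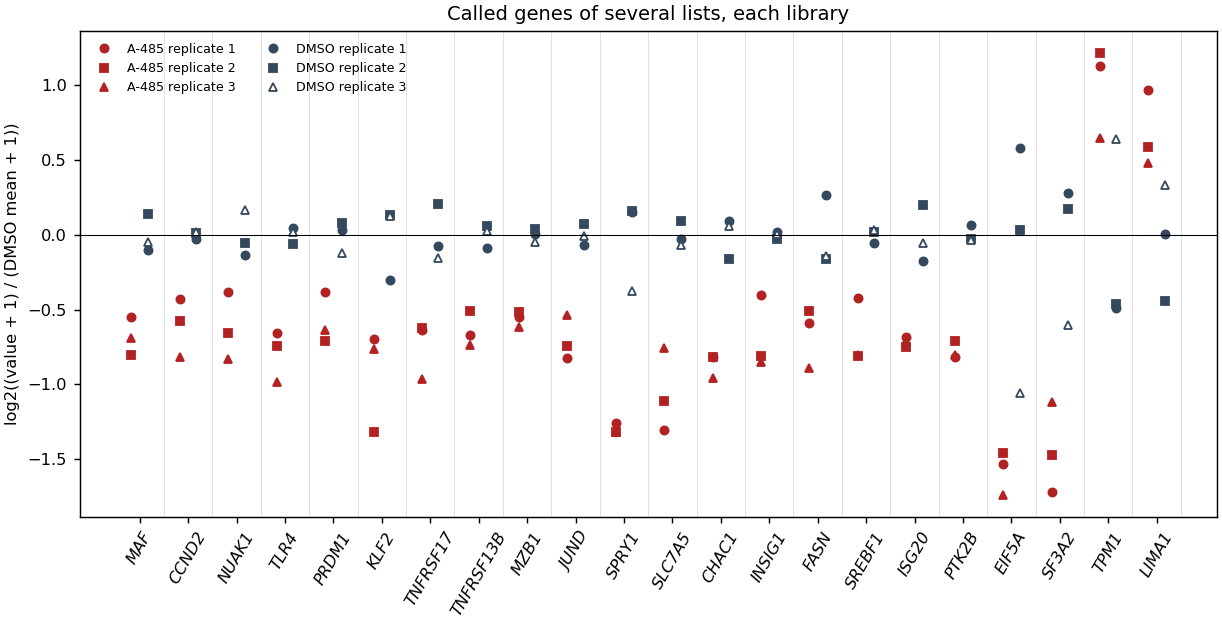
For 22 genes of the lists and of the largest changes, each library is shown as log2 of (value + 1) over (DMSO mean + 1), A-485 in red on the left of each column and DMSO in dark blue on the right, with DMSO replicate 3 as an open triangle. The DMSO replicates of CCND2, TLR4, MZB1, INSIG1 and PTK2B cluster near 0, while those of EIF5A, SF3A2, TPM1 and LIMA1 are spread, with DMSO replicate 3 nearest to the A-485 libraries.

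Most of the remaining lists had no member called by limma. CREBBP had 1701, 1477 and 1175 normalized read counts with A-485, against 1314, 1081 and 1396 with DMSO, and EP300 had 1175, 983 and 1132 with A-485, against 1310, 1167 and 1102 with DMSO. The groups overlapped for both targets of the compound, with log2 fold changes of 0.19 (95% interval −0.11 to 0.49) and −0.12 (95% interval −0.45 to 0.21). Of 14 histone acetyltransferases 0 were called, with 1 at an unadjusted p below 0.05 and 0 by edgeR or DESeq2. Of 13 MHC class II genes 0 were called, with 5 lower at an unadjusted p below 0.05, 0 by edgeR and 4 by DESeq2, and HLA-DRA was nearest to the threshold (−0.53, limma adjusted p = 0.051). Of 25 p53 target genes 0 were called, with 4 at an unadjusted p below 0.05, 0 by edgeR and 1 by DESeq2. The cell cycle lists also had 0 called: of 35 replication and 38 mitosis genes, edgeR called 1 and 2 and DESeq2 2 and 4, and 4 and 7 had an unadjusted p below 0.05. Of 74 cytosolic ribosomal proteins 0 were called, with 14 at an unadjusted p below 0.05, 2 by edgeR and 6 by DESeq2, and the median was 0.00 (0.08 under TMM scaling). Of 24 Notch and Wnt output genes BCL9L alone was called, and of 15 D cyclins, kinases and inhibitors CCND1 and CCND2, where 1.79% of all genes tested fell. Of 15 mitochondrially encoded genes limma called MT-ND4L alone (−0.63, limma adjusted p = 0.029), and in 2 of the 6 fits that left out 1 library. Its log2 fold change was −0.40 against DMSO replicate 3 alone. At an unadjusted p below 0.05, 7 of the 15 were lower and 0 higher, and edgeR called 3 lower and DESeq2 8. Of the 15, 10 lay below and 0 above all DMSO libraries, compared with 11.5% and 3.60% of all genes tested. The list's median was −0.48 (−0.03 under quantile normalization), and −0.36 against DMSO replicate 3 alone. The mitochondrial share of reads in each DMSO library was above that of every A-485 library, narrowly for DMSO replicate 3 (16.41%, against up to 16.12%).

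**Figure D4:**
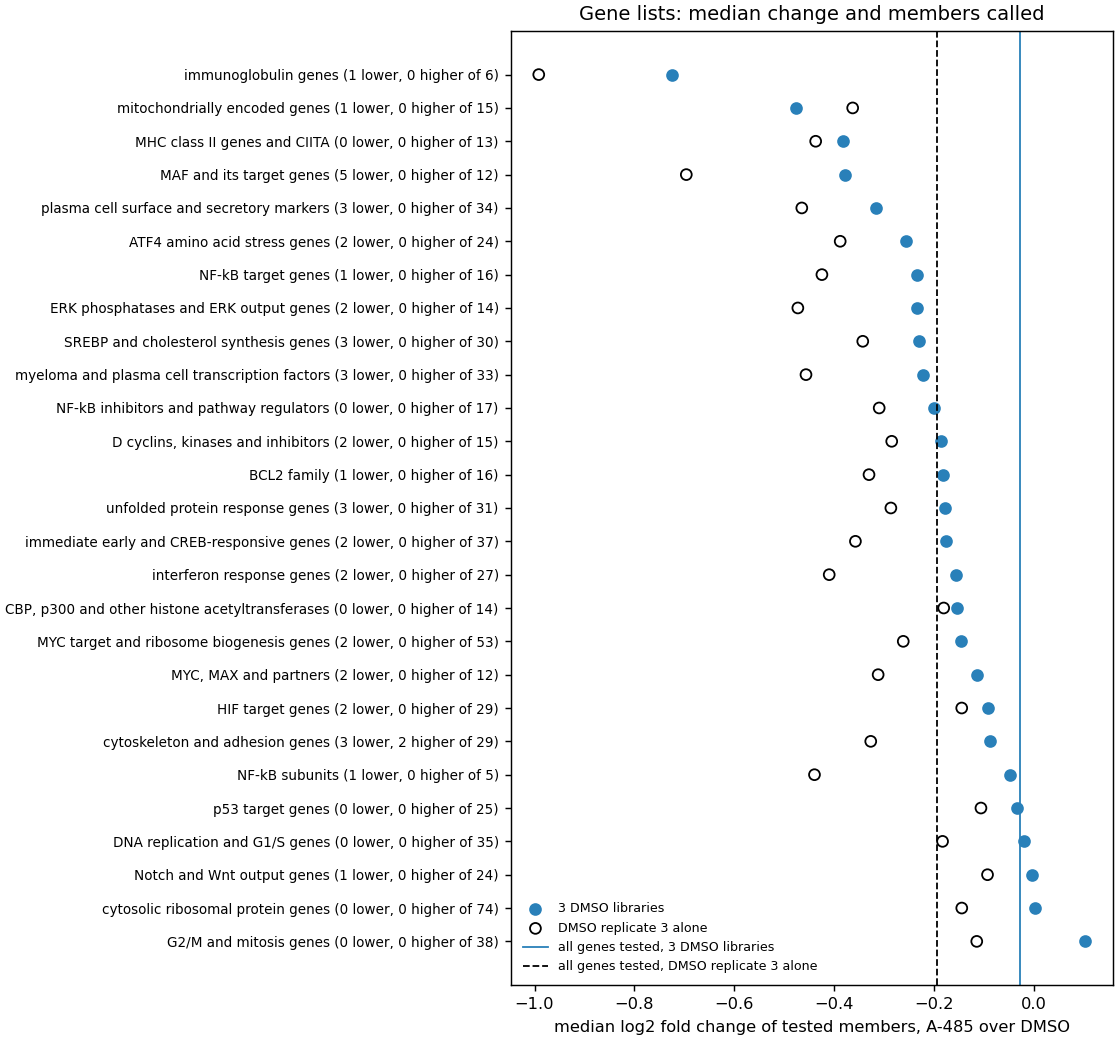
For each gene list the median log2 fold change of its tested members is shown for A-485 over all 3 DMSO libraries (filled) and over DMSO replicate 3 alone (open), with the members called lower and higher in the label and vertical lines at the medians of all genes tested (−0.03 and −0.19). The MAF list lies at −0.38 and −0.70, while the ribosomal protein, replication and mitosis lists lie near the lines.

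Of the 10 fallen genes with the largest change among those above the median level, NFKB2, PCDH1 and SPRY1 have been described. TYMP, the thymidine phosphorylase, had 148, 140.5 and 183.5 normalized read counts with A-485, against 504.5, 493.5 and 342 with DMSO, a log2 fold change of −1.49 ± 0.21 (SE, n = 3 each; limma adjusted p = 0.00018) that was −1.13 against DMSO replicate 3 alone (limma adjusted p = 0.13). TYMP shares exons with SCO2 and ODF3B. EIF5A, a translation elongation factor, had 2066, 2177.5 and 1791 normalized read counts with A-485, against 8933, 6109 and 2872 with DMSO. The 3 controls differed from one another by more than DMSO replicate 3 differed from the A-485 libraries, and the log2 fold change was −1.43 ± 0.24 (SE, n = 3 each; limma adjusted p = 0.0014) but −0.52 against DMSO replicate 3 alone (limma adjusted p = 0.42). SF3A2, a splicing factor, had 310.4, 368 and 470.5 normalized read counts with A-485, against 1240, 1153 and 674 with DMSO. DMSO replicate 3 was again the lowest control, and the log2 fold changes were −1.39 against all 3 DMSO libraries and −0.83 against DMSO replicate 3 alone (limma adjusted p = 0.00018 and 0.18). RARA, the retinoic acid receptor alpha, had 721, 551 and 713 normalized read counts with A-485, against 1514.5, 1989 and 1277 with DMSO, a log2 fold change of −1.25 ± 0.23 (SE, n = 3 each; limma adjusted p = 0.0038) that was −0.96 against DMSO replicate 3 alone (limma adjusted p = 0.29). RAC3, a small GTPase, CYBA, a subunit of the phagocyte NADPH oxidase, and MT-TV, the mitochondrial valine tRNA, had −1.28, −1.19 and −1.19 (limma adjusted p = 0.0034, 0.00073 and 0.0038), and −1.11, −0.81 and −1.09 against DMSO replicate 3 alone, none of them called there. Without DMSO replicate 2 the calls of SPRY1 (−1.19, limma adjusted p = 0.061) and RARA (−1.08, limma adjusted p = 0.057) ended.

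The 10 rises described here are the largest among called genes at or above the median level with groups that did not overlap. The median over all 56 risen genes was 1.33, and 37 of them rose at least 2-fold. All 10 were smaller against DMSO replicate 3 alone than against all 3 DMSO libraries. The median over all genes was −0.19 against DMSO replicate 3 alone and −0.03 against all 3. Relative to the median of −0.19, ENPP4 and PRKAR2B had 0.81 and 0.77, and the other 8 had 0.42 to 0.70. TPM1 had 211, 224 and 151.0 normalized read counts with A-485, against 68.2, 69.6 and 150.5 with DMSO. DMSO replicate 3 was nearly equal to the lowest A-485 library, and the log2 fold change was 1.10 ± 0.23 (SE, n = 3 each; limma adjusted p = 0.0081) but 0.35 against DMSO replicate 3 alone (limma adjusted p = 0.59). LIMA1 had 471, 362 and 335 normalized read counts with A-485, against 241, 177 and 303.5 with DMSO, and log2 fold changes of 0.71 and 0.34. PBK, a mitotic kinase, had 1719, 1678 and 1382 normalized read counts with A-485, against 891, 884 and 1356 with DMSO, and log2 fold changes of 0.63 and 0.23. ENPP4, a membrane phosphodiesterase, differed in having even controls, with 201.4, 182 and 194.5 normalized read counts with A-485, against 111.5, 125.5 and 125.0 with DMSO. Its log2 fold change was 0.67 ± 0.17 (SE, n = 3 each; limma adjusted p = 0.032) and 0.62 against DMSO replicate 3 alone (limma adjusted p = 0.32). BMT2, an S-adenosylmethionine sensor of mTORC1, SMYD3, a lysine methyltransferase, and RALGAPA2, a subunit of a Ral GTPase-activating complex, were also among the 10. DOK1, a docking protein of tyrosine kinases, PRKAR2B, a regulatory subunit of protein kinase A, and SPAG16, a sperm axoneme protein, completed them. These 6 had 0.74 to 0.87 against all 3 DMSO libraries and 0.27 to 0.58 against DMSO replicate 3 alone. None of the 10 was called against DMSO replicate 3 alone, and each lost its call without at least 2 of the 6 libraries, DMSO replicate 2 among them in every case.

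A-485 was next compared directly with GNE-781 at the same dose and time, a comparison of 3 against 3 libraries in which DMSO enters only the shared estimate of spread. Of the genes tested, 161 differed (1.0%), 117 of them higher with A-485 (0.727%) and 44 lower with A-485 (0.273%), and the median over all genes was −0.08. The counts were 315 higher and 78 lower under TMM scaling, 243 higher and 223 lower with only these 6 libraries in the fit, and 51 higher and 60 lower without A-485 replicate 1, so the balance of directions depended on the setting. The count in all was 76 and 103 without A-485 replicate 2 or 3 and 57, 72 and 79 without GNE-781 replicate 1, 2 or 3. The 117 genes higher with A-485 had a median of −0.22 for A-485 over DMSO and −1.04 for GNE-781 over DMSO, and the 44 lower with A-485 had −0.04 and 0.76. Of the 117, 17 were also among the 289 that fell with A-485, and of the 44, RND3 was, while the other 100 and 43 were not called for A-485 against DMSO.

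Plasma cell genes, a list chosen with earlier results of these data known, were among these differences. Of 33 plasma cell transcription factors 6 were higher with A-485 than with GNE-781 and 0 lower (10 and 0 under TMM scaling), with a median of 0.29, where 0.727% of all genes tested were higher and 0.273% lower. IRF4 had 2364, 1631 and 1667 normalized read counts with A-485, against 691, 963 and 946 with GNE-781. POU2AF1, a B-lineage coactivator of octamer factors, had 2797, 2267.5 and 2385 normalized read counts with A-485, against 975, 1179 and 1224 with GNE-781. The groups were far apart in both genes, with log2 differences of 1.12 ± 0.19 and 1.14 (limma adjusted p = 0.0017 and 3.2e-05), and both were called in 18 of 18 alternative analyses. PRDM1 differed by 0.74 (limma adjusted p = 0.0025) and was likewise called in 18 of 18, whereas MAF differed by 0.59 (limma adjusted p = 0.038) and lost its call without any 1 of the 6 libraries (limma adjusted p = 0.071 to 0.25). MYC differed by 0.92 (95% interval 0.24 to 1.60), which did not pass (limma adjusted p = 0.22).

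Of 34 plasma cell surface and secretory genes 8 were higher with A-485 than with GNE-781 (0.727% over all genes tested) and 0 lower, with a median of 0.21. TNFRSF17 had 3874, 3907 and 3089 normalized read counts with A-485, against 1634, 1294 and 1840.5 with GNE-781, a log2 difference of 1.20 ± 0.15 (SE, n = 3 each; limma adjusted p = 1.9e-05). CCR1 had 8481, 7788 and 6901 normalized read counts with A-485, against 3067, 3140 and 3392 with GNE-781, a log2 difference of 1.27 ± 0.13 (SE, n = 3 each; limma adjusted p = 1.1e-06). For CCR1 the A-485 libraries were at the level of DMSO, which had 7681, 8024 and 9406. The others were TNFRSF13B (1.03), the chemokine receptors CXCR3 (1.20) and CCR2 (1.73), the plasma cell proteoglycan SDC1 (0.68), the integrin ITGA4 (0.88) and the surface receptor SLAMF7 (0.59). CCR2 and SLAMF7 were each called in 1 of the 6 fits that left out 1 library (limma adjusted p up to 0.10 and 0.14), the other 6 genes in all of them. Beside CCR1, the 5 largest differences among genes above the median level were those of MAGI2, a scaffold protein of cell junctions (1.42), TP53INP1, a p53 target (1.41), MGLL, the monoglyceride lipase (1.25), and BLNK, the B cell linker adaptor (1.21), with limma adjusted p = 0.00018, 3.5e-06, 0.00052 and 0.0002. All 4 were called in 18 of 18 alternative analyses, and their values over DMSO were 0.16, −0.15, 0.04 and 0.02. Of 17 NF-kB regulators the deubiquitinase TNFAIP3 (0.77) and the ubiquitin ligase BIRC3 (0.68) were higher with A-485, and of 16 BCL2 family genes the survival factors BCL2L1 (0.83) and BCL2 (0.68). Without GNE-781 replicate 1 these 4 calls ended (limma adjusted p = 0.067, 0.078, 0.076 and 0.11). That of BIRC3 also ended without A-485 replicate 1 and that of BCL2L1 without A-485 replicate 3 (limma adjusted p = 0.051 and 0.077). BCL2 was called in 1 of the 6 fits that left out 1 library (limma adjusted p = 0.054 to 0.11 in the others). NFKB2, PCDH1, BCL9L, LPCAT1 and CD82 did not pass, with log2 differences of 0.13 (95% interval −0.17 to 0.44), −0.23 (−0.57 to 0.11), 0.52 (0.12 to 0.93), −0.07 (−0.42 to 0.28) and 0.03 (−0.26 to 0.32).

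Of the 44 genes that were lower with A-485 than with GNE-781, the 5 with the largest difference among those above the median level were EGR1, KCNS3 (−1.01), PGBD1 (−1.01), DOP1B (−0.998) and ETV5. KCNS3 encodes a modifier subunit of potassium channels. Without A-485 replicate 3 the calls of KCNS3, PGBD1 and DOP1B ended (limma adjusted p = 0.28, 0.064 and 0.073). EGR1 had 61.7, 30.3 and 44.3 normalized read counts with A-485, against 254.1, 167 and 277 with GNE-781, a log2 difference of −2.35 ± 0.24 (SE, n = 3 each; limma adjusted p = 1.1e-06). Its A-485 libraries were at the DMSO level, and those with dCBP-1 had 2662, 2609.8 and 2801. FOS (−1.22, limma adjusted p = 0.020) and JUN (−0.67, limma adjusted p = 0.011), the partners of AP-1, were also lower, and they were called in 1 and 2 of the 6 fits that left out 1 library. ETV5, an ERK-responsive factor, had 403, 374 and 308 normalized read counts with A-485, against 653, 613 and 761.5 with GNE-781, a log2 difference of −0.90 ± 0.16 (SE, n = 3 each; limma adjusted p = 0.0017). RND3 was the 1 gene called for A-485 against DMSO that was also lower with A-485 than with GNE-781, with 373.0, 286 and 285.5 normalized read counts with A-485 and 555, 519.9 and 594 with GNE-781. The log2 difference was −0.83 ± 0.17 (SE, n = 3 each; limma adjusted p = 0.0092), and the call ended without A-485 replicate 2 or 3 or GNE-781 replicate 1 or 3 (limma adjusted p = 0.063 to 0.080).

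Set side by side over the same 3 DMSO libraries, which the comparisons share, the compounds ordered differently by gene. MAF had log2 fold changes of −0.68 with A-485, −1.26 with GNE-781, −1.50 with the combination and −4.67 with dCBP-1. IRF4 had −0.33, −1.44, −1.81 and −3.35 in the same order, and TNFRSF17 −0.73, −1.93, −2.23 and −4.01. In these genes A-485 gave the smallest change. NFKB2 had −1.35 with A-485, −1.49 with GNE-781, −1.16 with the combination and −2.02 with dCBP-1, and PCDH1 −1.25, −1.02, −1.24 and −2.49. For RND3 the values were −1.11 with A-485, −0.28 with GNE-781, −0.55 with the combination and −4.23 with dCBP-1.

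**Figure D5:**
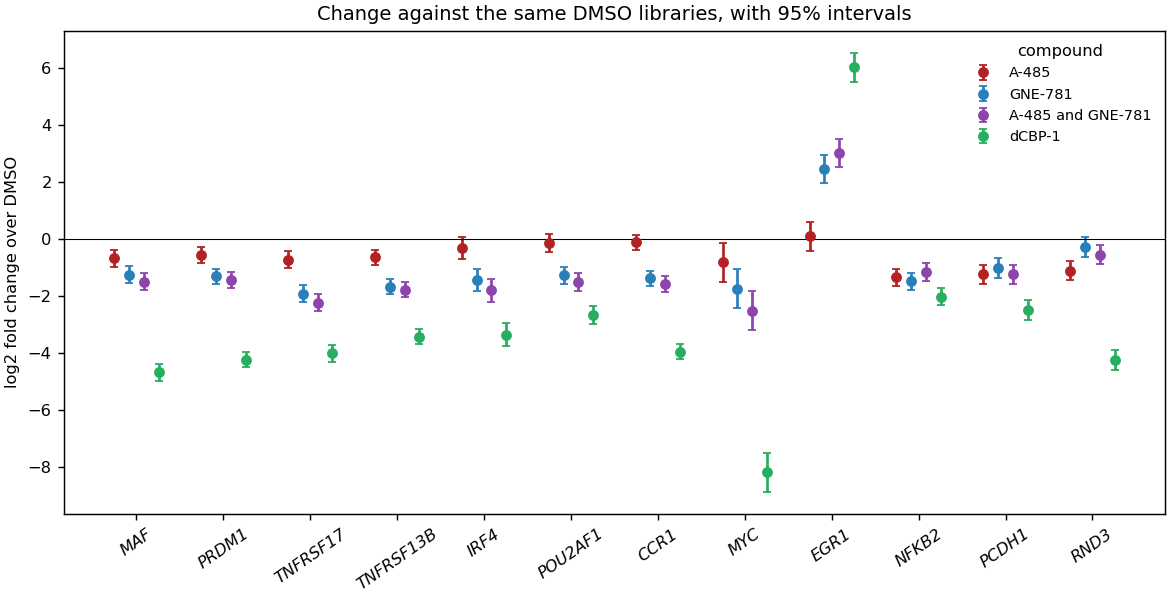
Log2 fold changes over the same 3 DMSO libraries, with 95% intervals, for 12 genes with A-485 (red), GNE-781 (blue), the combination (purple) and dCBP-1 (green). POU2AF1, CCR1 and EGR1 lie near 0 with A-485 and away from 0 with the other treatments. IRF4 lies at −0.33 with A-485 (95% interval −0.72 to 0.07) and further from 0 with the others. NFKB2 and PCDH1 lie together for A-485, GNE-781 and the combination, and RND3 is lower with A-485 than with GNE-781.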

How the data were processed

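RNA of MM.1S cells was extracted with Trizol and RNeasy columns after addition of ERCC spike-in RNA and made into Lexogen QuantSeq 3′ libraries, per the labels' protocols. Reads were placed on hg19, per the submitters' processing notes; the aligner and counter are not given there. The authors deposited 1 table of normalized read counts per gene (signal values here), with the method not given; in every library 100% of the values are whole reads times 1 factor, within 0.01 reads. One read counts the same for genes of any length. The table holds 47459 genes with values and 0 ERCC rows, and 45779 identifiers (96.5%) had a symbol in the annotation used.

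The 16104 genes that reached a value of 5 in 3 or more of the 15 libraries were tested as log2(value + 1) with limma 3.58.1 in R 4.3.3 (trend, 5 group means, two-sided, Benjamini-Hochberg adjusted p below 0.05); fold changes on this scale understate low genes. For DMSO replicate 3 alone, 13 libraries entered. As alternatives, edgeR 4.0.16 and DESeq2 1.42.0 were run on the recovered reads, and scaling, pseudocount, filter, controls, GC trend and replicate block were varied and each library left out. The steps were tested on simulated data.

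Genes named are the 10 largest falls and rises at or above the median level with groups that do not overlap, those called against both sets of controls, up to 4 called members of each list or else the one with the smallest p, CREBBP, EP300, MYC and IRF4, and the 5 largest differences from GNE-781 in each direction, of which the text gives a selection; other list members were named after their values were seen. The members and lists were chosen with earlier results of these data known. The treatment labels of 2 combination libraries name GNE-782 and GNE-783, read here as GNE-781 from their titles. Replicate numbers did not pair the libraries: deviations of libraries with the same number correlated at 0.031, −0.017 and −0.018. Replicates differed by more than counting noise, with a chi-square per degree of freedom of 10 to 16.1 with A-485 and 16.5 to 42.2 with DMSO. Promoter windows come from RefSeq on GRCh38.p14.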

Additional observations from a re-analysis of the deposited data

How the results depend on the processing

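The number of genes called for A-485 against DMSO was 178 with no filter on low values, 78 with only the 6 libraries in the fit (0 higher and 78 lower), 853 with DESeq2, 12 with DMSO replicate 3 as the only control, and 4 and 10 when TMM scaling or removal of the GC trend was added to that. It ranged over 69 to 1138 when 1 library was left out. It was 328 to 392 under the other scalings, pseudocounts, filter, edgeR and GC removal, and 235 with a replicate block. For A-485 against GNE-781 the number was 393 with TMM scaling, 395 with median-ratio scaling, 388 with quantile normalization, 466 with only the groups compared, 413 with edgeR, 743 with DESeq2, 437 with the GC trend removed and 107 with a replicate block, and it ranged over 57 to 111 when 1 library was left out. The GC and the combined alternatives were chosen after seeing the data. The cause of these changes was not tested.

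Of the single-gene values under the alternatives, 2025 kept their direction and side of the threshold, 615 fell short of it, 26 passed it and 14 reversed. Gene lists were tallied apart, as moved or the same. Without DMSO replicate 2, 18 lists moved and 13 were the same. Under TMM scaling these counts were 8 and 23, with the GC trend removed 12 and 19, and with a pseudocount of 5 they were 1 and 30. With DMSO replicate 3 alone and the GC trend removed, BAD had 0.030, the T and NK cell marker GNLY 0.19 and EP300 0.16 over DMSO, and with DMSO replicate 3 alone under TMM scaling GNLY had 0.12 and EP300 0.20. For A-485 over GNE-781, LPCAT1 had 0.0088 with TMM scaling, 0.0095 with median-ratio scaling, 0.029 with edgeR, 0.031 with DESeq2 and 0.034 with the GC trend removed. In that comparison NFKB2 ranged over −0.010 to 0.22, CD82 over −0.014 to 0.060 and RN7SL481P over −0.50 to 0.27 when 1 library was left out. Depth limits genes near the floor of 3 reads, and fits without a DMSO library rest on fewer controls.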
